A study of Arabidopsis thaliana with 32 samples.

Results

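The genes described here are 10 Arabidopsis genes of the response to phosphate starvation, taken by identifier: the regulators SPX1 and SPX3, the transporters PHT1;1, PHT1;4 and PHT1;9, the ribonuclease RNS1 and the lipid enzymes NPC4, SQD1, SQD2 and MGD3. They were followed through the authors' 8 deposited comparison tables of root RNA sequencing, which list only loci that the authors called changed. Of the 10 genes, 7 were called in at least 1 table, among 5162 genes named in any table. How many genes were tested over all tables together is not known, so these counts are set against all loci only within each comparison. SPX3 (AT2G45130), PHT1;9 (AT1G76430) and MGD3 (AT2G11810) were called in none. A gene that is not listed was either not changed beyond the authors' threshold or not tested, and the tables do not tell these apart.

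Roots came from seedlings of the accessions Col-0 and WS grown on plates of 0.5x MS medium under light. Flight seedlings (FLT) germinated and grew on the International Space Station and were harvested at 8 or 4 days, and ground control seedlings (GC) of the same ages grew with a delay of 48 h in a chamber that repeated the conditions on board. The labels name no transgene or mutation in any group, and all seedlings were fixed in RNAlater before the roots were dissected. The 32 libraries form 8 groups of 4 biological replicates, and a replicate is a pool of 2 to 3 roots at 8 days or of 5 to 8 at 4 days. The study set flight against ground for roots of like accession and age, and 8 days against 4 days for roots of like accession and place of growth.

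Plants short of phosphate raise uptake at the root surface, release phosphate from nucleic acids and other organic compounds, and swap membrane phospholipids for lipids without phosphate. The transcription factor PHR1 switches on most of these genes through a short DNA element called P1BS, and SPX proteins bind PHR1 and hold it back when phosphate is plentiful. Many of the genes, SPX1 among them, are therefore read as markers of how short of phosphate a root is. MS medium is a phosphate-rich medium, and no group was grown with phosphate withheld.

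The deposited values are 1 level per group in FPKM, a unit scaled for transcript length and sequencing depth. No value per replicate is given, so the spread between libraries is seen only through the authors' Cuffdiff test, and depth per library is unknown. Changes are log2 ratios of flight over ground or of 8 over 4 days. The figure behind each ± is a standard error, obtained as the deposited ratio divided by its test statistic, with 4 replicates per group. These errors can be wider than the authors' own test implies. The PHT1;1 locus was called in flight in 4 day Col-0 roots (Cuffdiff q = 0.026), though its 95% interval by this error ran from -0.89 to 0.08. A difference that did not pass a test built on these errors is therefore not shown to be absent. "Rose" and "fell" are kept for loci at an authors' q-value up to 0.05. Differences between 2 such changes were tested only where both were listed and shared no library. In bulk roots, fewer cells of a type and less RNA per cell cannot be told apart.

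The P1BS element was present near the annotated start of most of these genes in the reference genome. The search covered 250 bases before the RefSeq start and 50 after it, on TAIR10.1, for the letters GNATATNC, which read the same on both strands. The element was found in 6 of the 10 genes and in 20 of 56 other phosphate genes, against 1716 of all 27443 protein-coding genes (6.25%). Its sites are given in 30 bases of the gene's strand, with the 8 letters of the element in capitals. They are printed for the 6 of the 10 genes that carry it, SPX3 included although it was called in no comparison. Of the other phosphate genes that carry it, only AT4 here and GDPD1 further on have their sites printed. The first base of the element lay 23 bases into the transcribed part of SPX1 (chr5:6802293-6802322, plus strand), 20 into RNS1 (chr2:873514-873543, plus) and 15 into SQD1 (chr4:15935376-15935405, plus). It lay 7 bases before the start of PHT1;4 (chr2:16257139-16257168, plus), 219 before NPC4 (chr3:845297-845326, minus), and 213 and 90 before SPX3 (chr2:18606186-18606215 and chr2:18606309-18606338, plus). AT4, a non-coding phosphate RNA described further on, had it 26 bases before its start (chr5:894545-894574, plus).
SPX1: cagagaaaaaaGGATATTCtaattagaaac
RNS1: caaaaggtacaGTATATACcataaatctcc
SQD1: ggaataagtaaGAATATGCtttgggcatat
PHT1;4: gttgttcggaaGAATATACcgaagtagcaa
NPC4: cttgaaaaagtGAATATTCttgacacagac
SPX3, far site: tattagagaccGAATATGCcagaggatttg
SPX3, near site: gctaaagctaaGCATATCCgctttcatatt
AT4: tttggtaattgGCATATTCcttttagaaga
No match lay in this window for PHT1;1, PHT1;9, SQD2 or MGD3, which says only that these letters are not in it. A match is a stretch of letters and not a measured binding site.

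The 10 genes had 15 calls with age and 9 in flight. Among all loci, calls with age were 1357 in flight Col-0, 2235 in ground Col-0, 1075 in flight WS and 1104 in ground WS. Flight calls of all loci at 4 and 8 days were 1414 and 812 in Col-0 and 128 and 888 in WS. A surplus of age calls is therefore not particular to the 10 genes. SPX1 and the root phosphate importer PHT1;4 were lower at 8 than at 4 days in all 4 age comparisons, and the PHT1;1 locus in both of Col-0. The sulfolipid synthase genes SQD1 and SQD2 also fell with age where they were called, and NPC4 alone among the 10 genes was called higher. In all, 14 of the 15 age calls of these genes were decreases, in 4 comparisons that share no library.

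SPX1 (AT5G20150, TAIR10 chromosome 5, 6802372 to 6803658) encodes the nuclear protein that restrains PHR1. In flight Col-0 roots the authors' deposited table gave SPX1 47.9 FPKM at 8 days and 110 FPKM at 4 days, a change of -1.20 ± 0.23 (q = 0.00174). On the ground the deposited table for Col-0 gave 31.6 FPKM at 8 days and 87.0 FPKM at 4 days, a change of -1.46 ± 0.26 (q = 0.00107). Both Col-0 groups at 8 days thus stood below both groups at 4 days, in tables that were scaled separately.

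In flight WS roots SPX1 had 45.0 FPKM at 8 days and 87.6 FPKM at 4 days in the authors' deposited table, a change of -0.96 ± 0.33 (q = 0.00218). On the ground the WS deposited table gave 26.5 FPKM at 8 days and 87.7 FPKM at 4 days, a change of -1.73 ± 0.34 (q = 0.00217). The 4 day levels of flight and ground WS roots were nearly equal, although they come from tables that were scaled separately. The age change of SPX1 in flight less that on the ground was 0.77 in WS, with a 95% interval of -0.16 to 1.69, and 0.26 in Col-0, with an interval of -0.43 to 0.94. Both intervals include 0, and neither difference passed the test adjusted over all 2181 differences that could be formed.

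**Figure D1:**
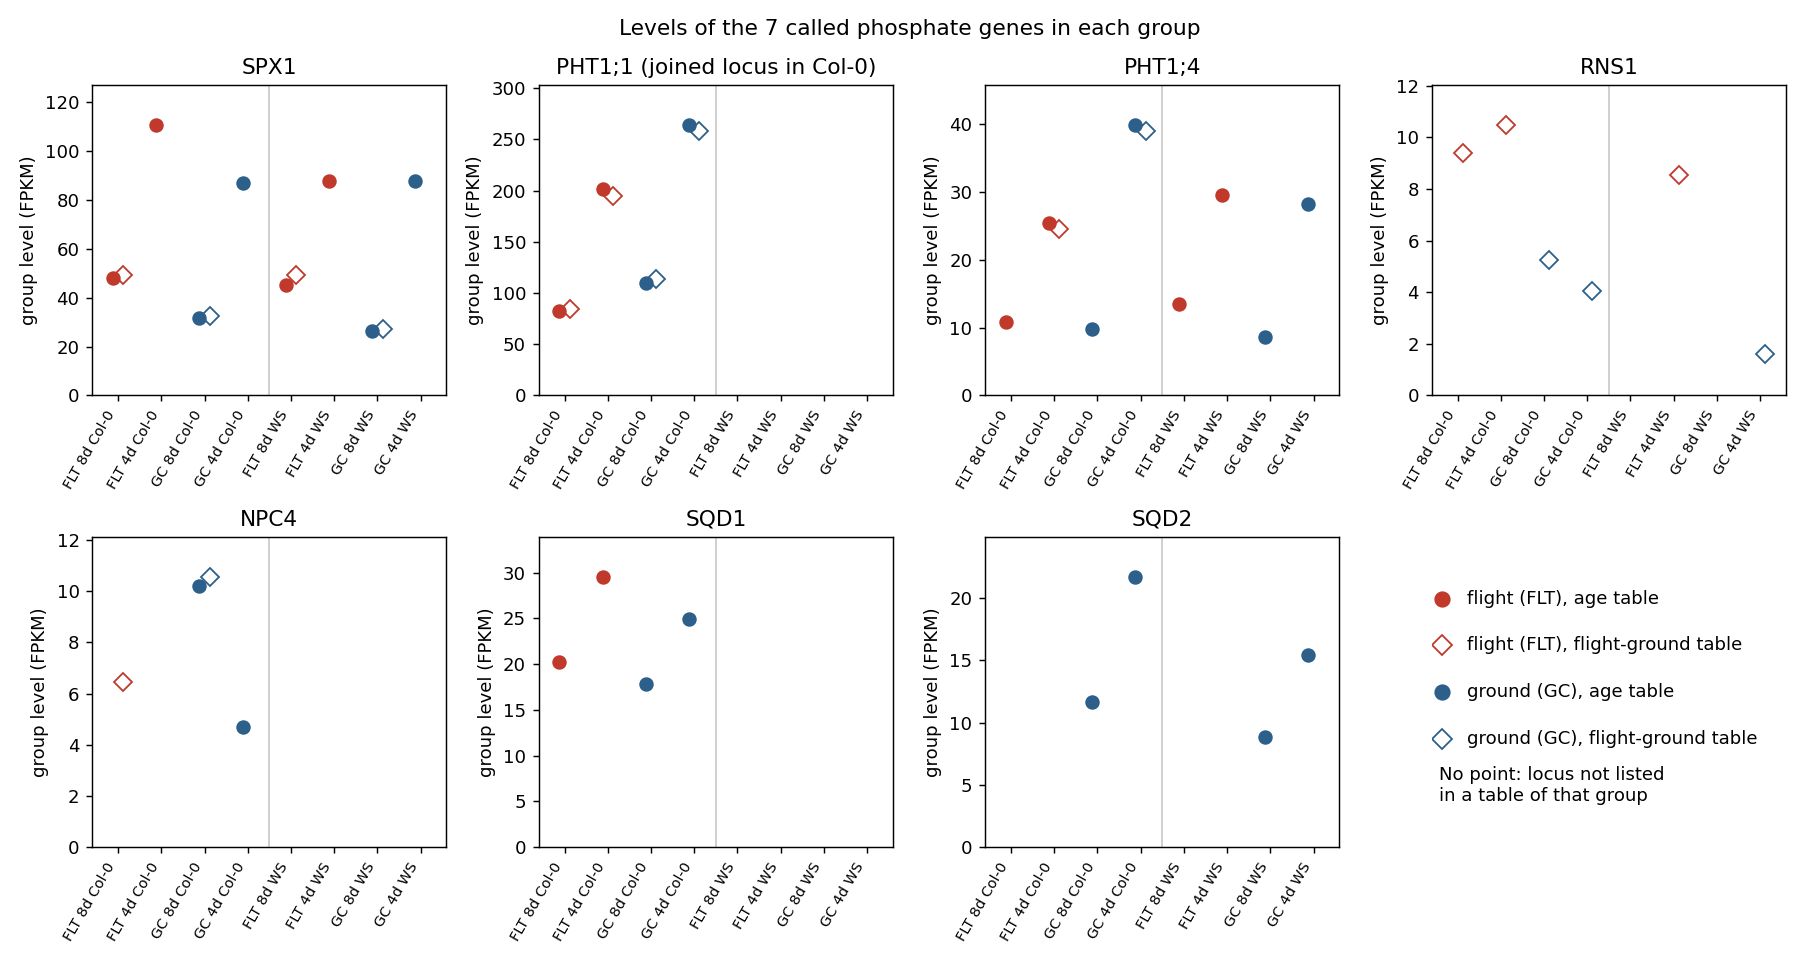
Level of each called gene in FPKM (vertical axes, from 0) in the 8 groups, flight in red and ground in blue; filled circles come from the authors' age tables and open diamonds from their flight-ground tables, 1 value per group and table with no error given. SPX1 stands at 26.5 to 49.4 FPKM in the 8 day groups and at 87.0 to 110 FPKM in the 4 day groups.

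PHT1;4 (AT2G38940, TAIR10 chromosome 2, 16257228 to 16260243) encodes a high-affinity importer of phosphate in the root plasma membrane. In Col-0 it had 10.9 FPKM at 8 days and 25.5 FPKM at 4 days in flight in the authors' deposited table, a change of -1.23 ± 0.28 (q = 0.00174). On the ground it had 9.87 FPKM at 8 days and 39.8 FPKM at 4 days in the deposited table, a change of -2.01 ± 0.29 (q = 0.00107), the largest age change listed for the 10 genes. In WS the authors' deposited table gave 13.5 FPKM at 8 days and 29.6 FPKM at 4 days in flight (-1.14 ± 0.56, q = 0.00218). The ground WS deposited table gave 8.62 FPKM at 8 days and 28.3 FPKM at 4 days (-1.71 ± 0.70, q = 0.00217). The age change was smaller in flight than on the ground by 0.79 in Col-0 (95% interval -0.01 to 1.59) and by 0.58 in WS (-1.18 to 2.34). Neither difference passed the adjusted test. Over all genes 1.56% of the differences passed, and for these genes 0 of 15 did. Of the same kind of difference, 1.42% passed for the age change in Col-0 and 1.45% for that in WS, flight less ground. Between accessions 0.725% passed for the age change in flight, 0.573% for that on the ground and 2.24% for the flight change at 8 days, with 0 of 33 at 4 days. Between ages 3.25% passed for the flight change in Col-0 and 5.88% of 34 in WS, where none of the 10 genes could be tested.

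PHT1;1 (AT5G43350) encodes the main phosphate importer of roots at moderate supply, and its level could not be separated from its neighbours. The Col-0 locus that carries its name runs over chromosome 5 from 17399789 to 17417798 (TAIR10), a stretch that also holds PHT1;3 (17409524 to 17411214) and nearly all of PHT1;2 (17415698 to 17417972), close copies that can share reads. This locus had 82.4 FPKM at 8 days and 202 FPKM at 4 days in flight in the authors' deposited table, a change of -1.29 ± 0.22 (q = 0.00174). On the ground it had 109.5 FPKM at 8 days and 264 FPKM at 4 days in the deposited table, a change of -1.27 ± 0.23 (q = 0.00107). The flight and ground age changes differed by -0.02 (95% interval -0.66 to 0.61). In WS no locus named PHT1;1 was listed, but a locus naming PHT1;3 and PHT1;2, of 18313 bases against 18010 in Col-0, fell on the ground by 1.04 ± 0.53 on the log2 scale in the deposited table, with 70.6 FPKM at 8 days and 144.8 FPKM at 4 days (q = 0.00526).

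SQD1 (AT4G33030) and SQD2 (AT5G01220) catalyse the successive steps that build the sulfolipid which replaces phospholipid in plastid membranes. SQD1 had 20.3 FPKM at 8 days and 29.5 FPKM at 4 days in flight Col-0 roots in the authors' deposited table (-0.54 ± 0.25, q = 0.00174). On the ground the Col-0 deposited table gave SQD1 17.8 FPKM at 8 days and 24.9 FPKM at 4 days (-0.48 ± 0.28, q = 0.00747). These were the smallest age changes listed for the 7 genes. The change in flight less that on the ground was -0.06, with a 95% interval of -0.79 to 0.67.

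SQD2 was called with age on the ground in both accessions and was not listed with age in flight, so the difference between flight and ground was not tested. The authors' deposited table gave 11.6 FPKM at 8 days and 21.7 FPKM at 4 days in Col-0 (-0.90 ± 0.49, q = 0.00929). In WS the deposited table gave 8.86 FPKM at 8 days and 15.4 FPKM at 4 days (-0.80 ± 0.44, q = 0.0103). The Col-0 locus of SQD2 (chromosome 5, 84307 to 90043) also spans AT5G01210 and the antisense gene model AT5G01215, whose reads cannot be told apart from those of SQD2 there.

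NPC4 (AT3G03530, TAIR10 chromosome 3, 842499 to 845092), a phospholipase that breaks down phospholipids and phosphosphingolipids when phosphate is short, went the other way. In ground Col-0 roots it had 10.2 FPKM at 8 days and 4.70 FPKM at 4 days in the authors' deposited table, a rise of 1.11 ± 0.38 (q = 0.00107). It was not called with age in flight Col-0 roots or in WS. RNS1 was not called with age in any comparison. The 250 bases before the start of NPC4 (chr3:845097-845346, minus strand) are shown whole, as those of the called gene whose age change was opposite, with the element in capitals.
NPC4, before the start: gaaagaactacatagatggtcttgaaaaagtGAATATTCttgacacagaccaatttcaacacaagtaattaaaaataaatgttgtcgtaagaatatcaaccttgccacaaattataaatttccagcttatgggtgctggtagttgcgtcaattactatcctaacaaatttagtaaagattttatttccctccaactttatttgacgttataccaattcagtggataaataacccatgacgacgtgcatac

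**Figure D2:**
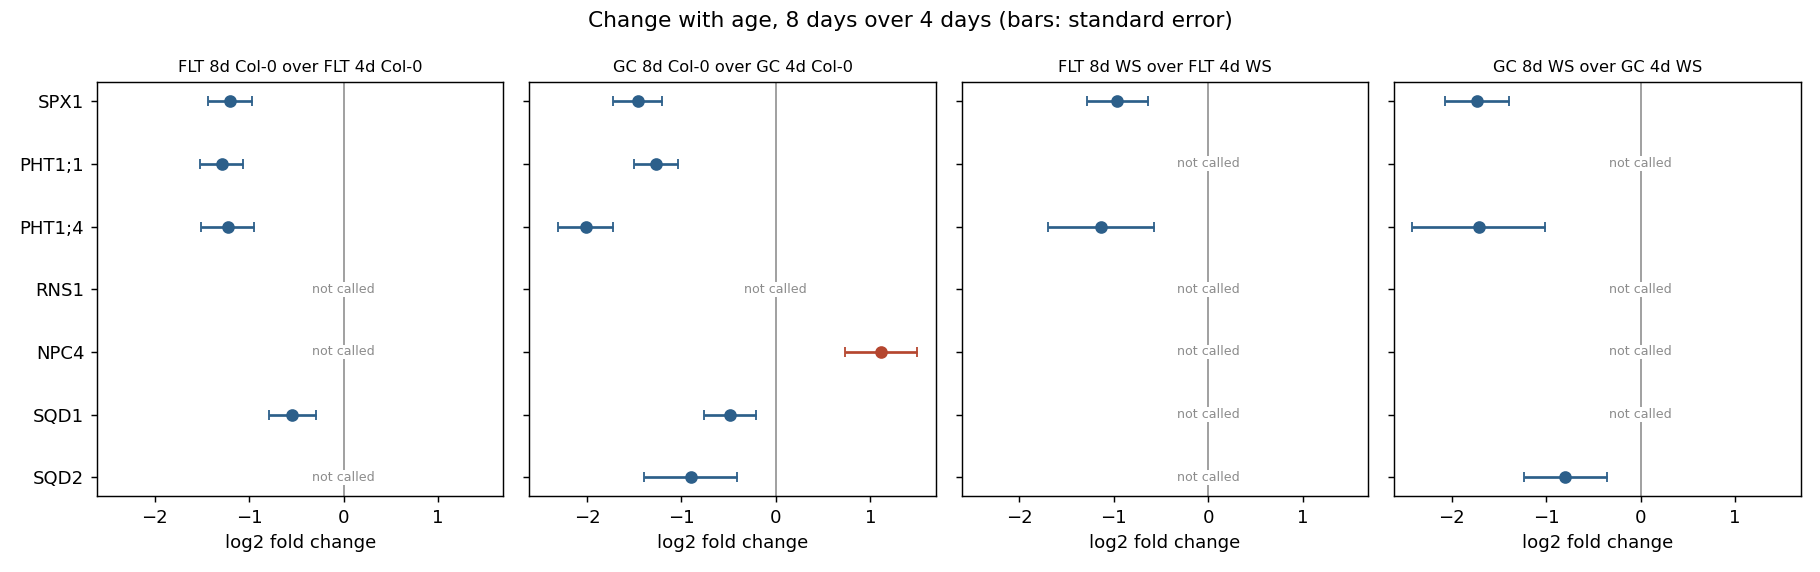
Log2 fold change of 8 over 4 days (horizontal axes) of the 7 genes in each of the authors' age tables, with the standard error implied by the test statistic (bars) from 4 replicates per group. Each SPX1 and PHT1;4 point lies between -0.96 and -2.01, and NPC4 alone lies above 0, at 1.11.

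Set beside all loci tested, decreases with age were frequent among the 10 genes. The 10 genes were chosen with earlier results of these data known, so their shares, here and for flight, are not independent evidence. In flight Col-0 roots 4 of 10 fell and 0 rose, where 6.78% of 20007 tested loci were called, 3.45% lower and 3.33% higher. On the ground in Col-0 5 of 10 fell and 1 rose, where 11.2% of 19905 loci were called, 5.54% lower and 5.69% higher. In flight WS roots 2 of 10 fell and 0 rose, where 6.08% of 17695 loci were called, 3.42% lower and 2.65% higher. In ground WS roots 3 of 10 fell and 0 rose, where 6.13% of 18017 loci were called, 3.27% lower and 2.85% higher. Among called loci the median change was 0.30 in ground Col-0 roots and lay between -0.50 and -0.29 in the other 3 age comparisons, while the median of the called genes among the 10 was -1.08 in ground Col-0 and -1.22 in flight Col-0. The 7 called genes have transcripts of 1120 to 2221 nt, and called genes of 800 to under 2500 nt were split nearly evenly with age, 49.6% to 54.4% of them being higher at 8 days.

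Of 56 further genes of uptake, recycling, lipid exchange and regulation, 17 were lower at 8 days in at least 1 age comparison, 0 were higher in any and the rest were not called. The calls made were 33 decreases and 0 increases. By comparison, 11 of 56 fell in flight Col-0 roots, 10 in ground Col-0, 3 in flight WS and 9 in ground WS. These are 19.6%, 17.9%, 5.36% and 16.1% of the list, where 3.45%, 5.54%, 3.42% and 3.27% of all loci fell, so the share in flight WS roots was near that of all loci.

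The non-coding RNAs IPS1 and AT4 sequester the phosphate-starvation microRNA miR399. IPS1 fell in all 4 age comparisons, and AT4 in both of Col-0 and in neither of WS. IPS1 (AT3G09922) had 26.7 FPKM at 8 days and 98.1 FPKM at 4 days in flight Col-0 roots in the authors' deposited table, a change of -1.88 ± 0.54. The deposited tables gave IPS1 changes of -1.95 ± 0.58 in ground Col-0, -1.60 ± 0.60 in flight WS and -1.06 ± 0.67 in ground WS. Its locus ran over 2225 bases in Col-0 and 1953 in WS for a transcript of 542 nt, and which genes it spans was not checked. Under 800 nt, the share of called genes that was higher at 8 days was 22.7% in flight and 73.1% in ground Col-0 roots. It was 26.0% in flight WS and 50.5% in ground WS, and the part of length in the IPS1 changes was not tested. AT4 (AT5G03545) reached the highest levels listed for any of these genes, with 465 FPKM at 8 days and 1124 FPKM at 4 days in ground Col-0 roots in the authors' deposited table (-1.27 ± 0.19). In flight Col-0 roots it had 705 FPKM at 8 days and 1195 FPKM at 4 days in the deposited table (-0.76 ± 0.19), a difference between flight and ground of 0.51 (95% interval -0.02 to 1.04) that did not pass the adjusted test.

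GDPD1 (AT3G02040, also named SRG3), a phosphodiesterase that releases glycerol phosphate from lipid remnants, was lower with age in all 4 comparisons. The locus ran over 5158 bases in Col-0 and 5109 in WS for a transcript of 1525 nt, and which genes it spans was not checked. The change of GDPD1 in the authors' deposited tables was -1.01 ± 0.26 in flight Col-0, -1.43 ± 0.32 in ground Col-0, -1.75 ± 0.37 in flight WS and -1.62 ± 0.39 in ground WS. Its 250 bases before the start (chr3:350011-350260, minus strand, TAIR10.1) hold P1BS at both 127 and 63 bases from the start and are printed with the elements in capitals, since no other called phosphate gene had a pair of them in this stretch.
GDPD1, before the start: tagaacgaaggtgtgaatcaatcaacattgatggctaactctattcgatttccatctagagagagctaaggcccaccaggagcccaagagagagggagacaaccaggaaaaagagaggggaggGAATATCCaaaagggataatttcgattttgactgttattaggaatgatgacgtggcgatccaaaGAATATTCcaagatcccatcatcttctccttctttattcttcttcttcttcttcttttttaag

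Of 14 further genes of phosphate transport, 5 fell with age in flight Col-0, 4 in ground Col-0, 0 in flight WS and 4 in ground WS, and 0 rose. In the same order, 3.45%, 5.54%, 3.42% and 3.27% of all loci fell. Among the 4 in ground WS, PHT1;2 and PHT1;3 are a single joined locus counted for each. Among the 5 in flight Col-0, G3Pp1 (AT3G47420) was called in a locus of 22824 bases joined with AT3G47370. That call cannot be assigned to G3Pp1 alone. The xylem-loading exporter gene PHO1 (AT3G23430, a locus joined with AT3G23420) changed by -0.96 ± 0.31 in flight Col-0, -0.76 ± 0.36 in ground Col-0 and -1.74 ± 0.71 in ground WS in the authors' deposited tables. That locus ran over 7245 bases in Col-0 and 57020 in WS, so its WS values cannot be assigned to PHO1 alone. The PHO1 relative PHO1;H1 changed by -0.79 ± 0.28, -1.19 ± 0.28 and -1.53 ± 0.41 in the deposited tables of the same 3 comparisons. PHF1, which lets PHT1 transporters leave the endoplasmic reticulum, fell in both Col-0 age comparisons, with 16.6 FPKM at 8 days and 29.3 FPKM at 4 days on the ground in the deposited table (-0.81 ± 0.29). Outside transport, the pyrophosphatase gene PS2 (AT1G73010) fell in both WS age comparisons, with changes of -1.36 ± 0.38 in flight and -0.81 ± 0.41 on the ground in the authors' deposited tables. The zinc finger gene ZAT6 fell in flight Col-0 roots by 0.86 ± 0.39 on the log2 scale in the deposited table.

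Markers of other cell types moved with age too. Of 12 green tissue genes, 6 fell in flight Col-0, 3 in ground Col-0, 4 in flight WS and 4 in ground WS, and 0 rose. Of 11 root hair genes, whose cells take up phosphate, 1 fell in flight Col-0, 6 in ground Col-0, 0 in flight WS and 2 in ground WS, and 0 rose. The shares of all loci that fell were 3.45%, 5.54%, 3.42% and 3.27% in the same order. Of 7 seed and embryo genes 1 fell, OLEO4, which the authors' deposited table lists at 0 FPKM at 8 days and 26.6 FPKM at 4 days in ground WS roots. The part of these cell types in the phosphate changes was not tested. PHO1, PHO1;H1 and PAH2 have transcripts of 2994, 3188 and 3457 nt, a class from 2500 nt upwards in which the share of called genes that was higher at 8 days was 49.3% in flight Col-0, 39.5% in ground Col-0, 23.8% in flight WS and 17.9% in ground WS roots. The part of length in their changes was not tested.

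**Figure D3:**
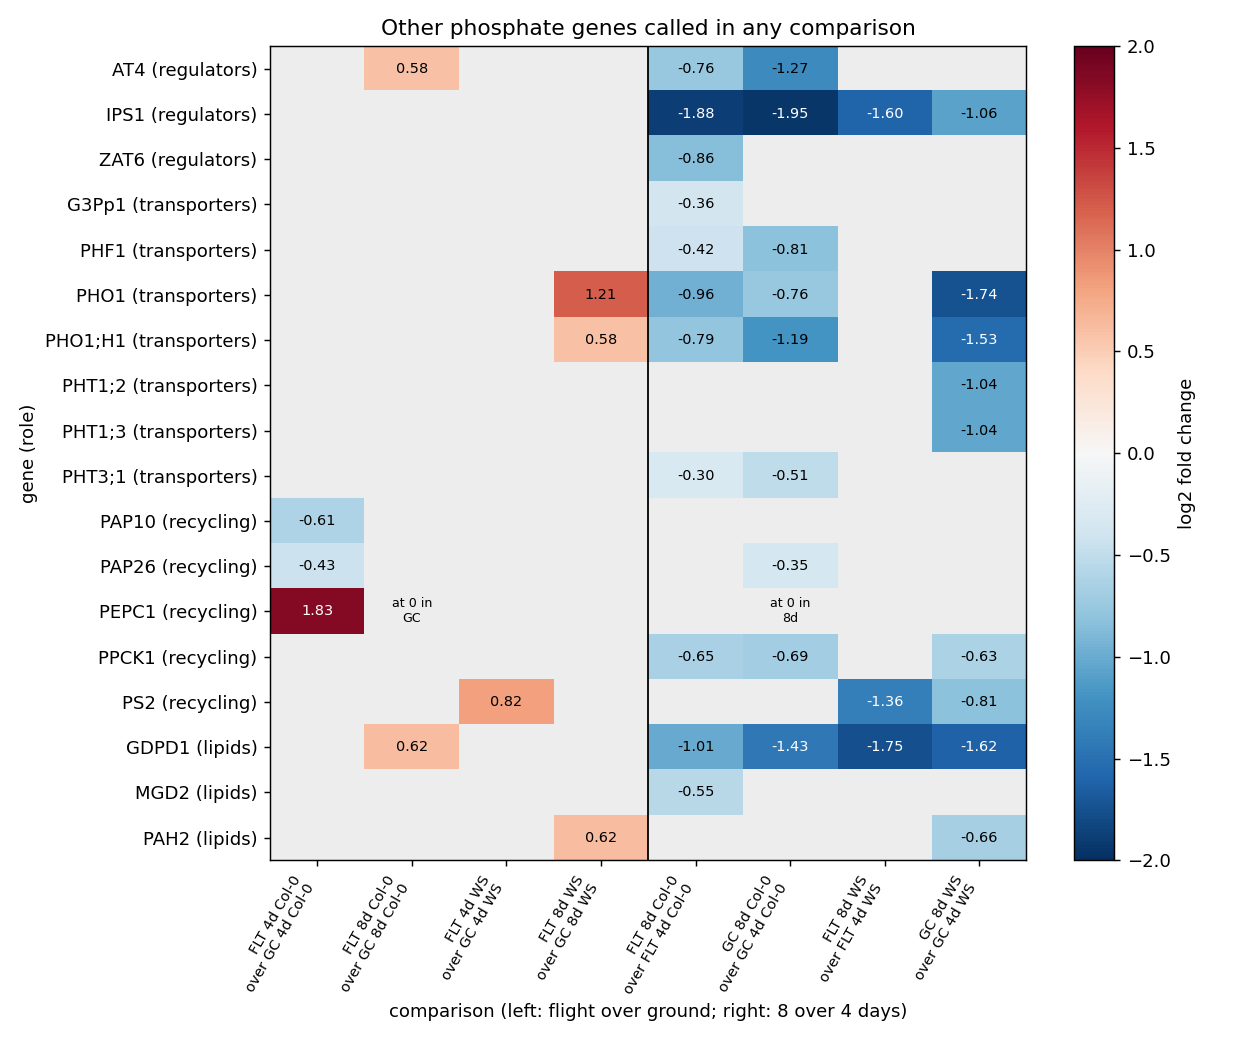
Log2 fold change (colour and printed value, red higher and blue lower) of the 18 other phosphate genes called in any comparison, with flight over ground in the left 4 columns and 8 over 4 days in the right 4; grey cells were not called. The 33 age cells that hold a call are all decreases, while the flight cells hold 8 increases and 2 decreases; PHT1;2 and PHT1;3 show 1 joined locus.

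In flight the 10 genes did not move as 1 group. RNS1 rose at 4 days in both accessions and at 8 days in Col-0, and SPX1 rose at 8 days in both accessions. PHT1;4 fell in 4 day Col-0 roots and NPC4 in 8 day Col-0 roots, and the PHT1;1 locus fell at both ages in Col-0, although its change became 0.05 at 4 days and -0.01 at 8 days once the median of the called loci of each table was subtracted. Of 9 flight calls, 5 were increases and 4 decreases.

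RNS1 (AT2G02990, TAIR10 chromosome 2, 873506 to 874839) encodes a secreted ribonuclease that is induced by phosphate starvation and by wounding. At 4 days the authors' deposited table gave 8.54 FPKM in flight and 1.60 FPKM on the ground in WS, a rise of 2.41 ± 0.97 (q = 0.0328). In Col-0 at the same age the deposited table gave 10.5 FPKM in flight and 4.07 FPKM on the ground, a rise of 1.36 ± 0.56 (q = 0.00185). At 8 days Col-0 roots had 9.40 FPKM in flight and 5.26 FPKM on the ground in the authors' deposited table, a rise of 0.84 ± 0.43 (q = 0.00984). All 3 listed flight levels of RNS1 lay above all 3 listed ground levels, at the lowest FPKM of the 7 genes. Within a table a called rise fixes that order, and levels across tables were scaled separately, so the order is no further evidence. The WS rise less the Col-0 rise at 4 days was 1.05, with a 95% interval of -1.15 to 3.25, and the 8 day less the 4 day rise in Col-0 was -0.53 (-1.92 to 0.86). Neither difference passed the adjusted test.

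SPX1 rose in flight at 8 days and was not called at 4 days. The authors' deposited table gave 49.4 FPKM in flight and 27.1 FPKM on the ground in 8 day WS roots, a rise of 0.86 ± 0.27 (q = 0.00259). In 8 day Col-0 roots the deposited table gave 49.1 FPKM in flight and 32.7 FPKM on the ground, a rise of 0.59 ± 0.23 (q = 0.00263), which was 1.00 against the median of called loci. The rises of the 2 accessions differed by 0.28 (95% interval -0.42 to 0.98), which did not pass the adjusted test. Whether the rise differs between ages is the same contrast as the age change in flight less that on the ground, which did not pass the test in either accession.

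The 2 transporter loci were lower in flight in Col-0. PHT1;4 had 24.6 FPKM in flight and 39.0 FPKM on the ground at 4 days in the authors' deposited table, a change of -0.67 ± 0.28 (q = 0.00185), which was -0.21 against the median of called loci. At 8 days it was not called, and the age tables, scaled separately, place it at 10.9 FPKM in flight and 9.87 FPKM on the ground in the authors' deposited tables. The PHT1;1 locus had 84.4 FPKM in flight and 113 FPKM on the ground at 8 days in the deposited table, a change of -0.43 ± 0.20 (q = 0.00263). At 4 days it had 195 FPKM in flight and 258 FPKM on the ground in the deposited table, a change of -0.41 ± 0.25 (q = 0.026), and against the median of called loci these changes were -0.01 at 8 days and 0.05 at 4 days. The 2 changes of the locus differed by -0.02 (95% interval -0.65 to 0.61). In WS neither transporter was called in flight, and PHT1;4 stood in the age tables at 13.5 FPKM in flight and 8.62 FPKM on the ground at 8 days in the authors' deposited tables, levels set across separately scaled tables without a test.

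NPC4 had 6.46 FPKM in flight and 10.5 FPKM on the ground in 8 day Col-0 roots in the authors' deposited table, a fall of 0.71 ± 0.31 on the log2 scale (q = 0.00263), and its change was -0.29 against the median of called loci. This fall and the age rise of NPC4 on the ground rest on the same 8 day ground Col-0 libraries, so they are not independent. SQD1 and SQD2 were not called in flight in any comparison.

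**Figure D4:**
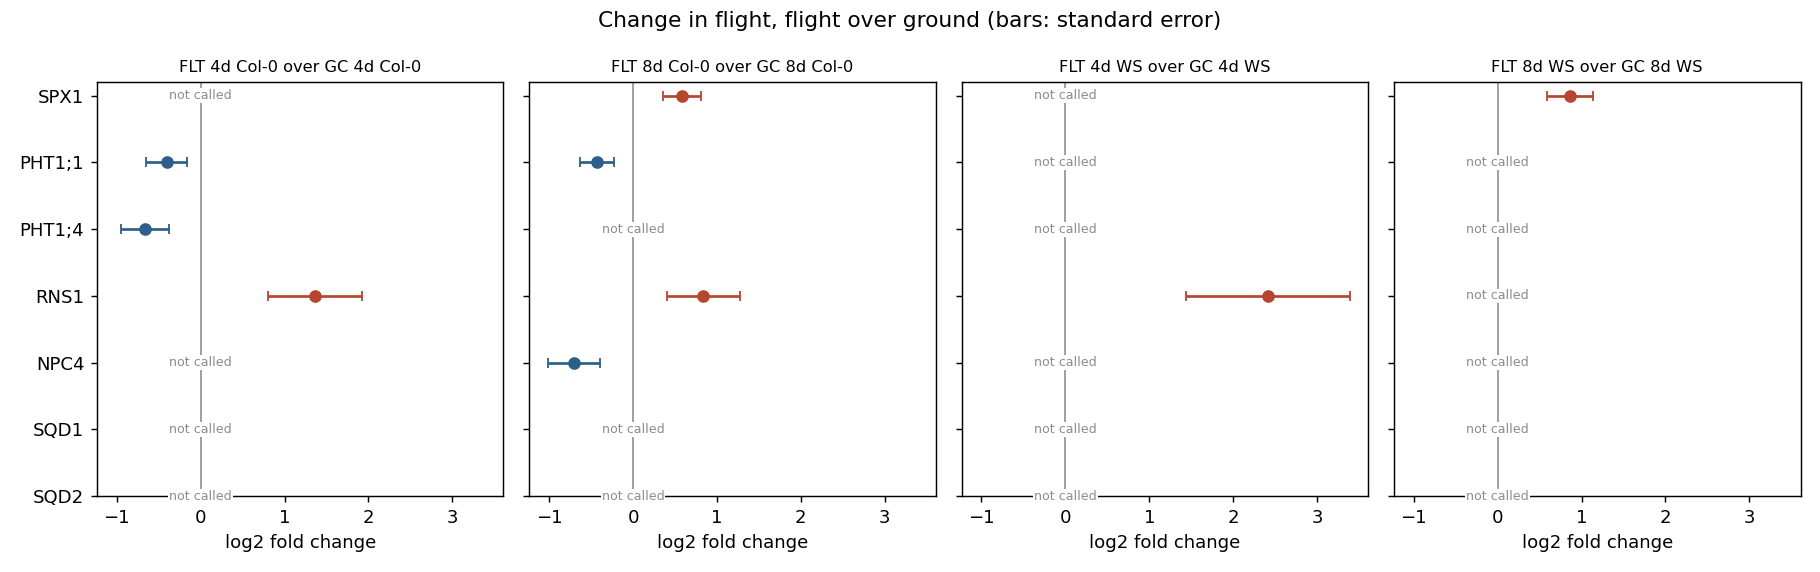
Log2 fold change of flight over ground (horizontal axes) of the 7 genes in each of the authors' flight-ground tables, with the standard error implied by the test statistic (bars) from 4 replicates per group. RNS1 and SPX1 lie above 0 wherever called, from 0.59 to 2.41, and PHT1;1, PHT1;4 and NPC4 below it, from -0.71 to -0.41, where PHT1;1 becomes 0.05 at 4 days and -0.01 at 8 days against the median of called loci.

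Beside all loci tested, 3 of the 10 genes were called in 4 day Col-0 roots, 1 higher and 2 lower in flight, where 7.21% of 19612 loci were called, 3.1% higher and 4.11% lower. At 8 days 2 rose and 2 fell in Col-0, where 4.05% of 20035 loci were called, 1.26% higher and 2.8% lower. In 4 day WS roots 1 rose, where 0.715% of 17899 loci were called, 0.352% higher and 0.363% lower. In 8 day WS roots 1 rose, where 5.11% of 17365 loci were called, 2.36% higher and 2.75% lower.

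Of the 56 other phosphate genes, 7 rose in flight in at least 1 comparison and 2 fell. In 4 day Col-0 roots 1 rose and 2 fell, 1.79% and 3.57% of the list, both below the 3.1% and 4.11% of all loci. In 8 day Col-0 roots 3 rose and 0 fell (5.36% of the list, beside 1.26% of all loci). AT4 had 722 FPKM in flight and 482 FPKM on the ground there in the authors' deposited table (0.58 ± 0.16), and GDPD1 had 26.4 FPKM in flight and 17.1 FPKM on the ground (0.62 ± 0.28). The third, PEPC1 (AT1G17710), which here names a phosphatase of the phosphate response, was listed at 2.12 FPKM in flight and at 0 FPKM on the ground in the deposited table. PEPC1 also rose in 4 day Col-0 roots, with 10.2 FPKM in flight and 2.86 FPKM on the ground in the authors' deposited table (1.83 ± 0.61). Both genes that fell did so in the same 4 day Col-0 comparison of the deposited table, the acid phosphatase genes PAP10 (-0.61 ± 0.38) and PAP26 (-0.43 ± 0.22).

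In WS, PS2 alone of the 56 rose in flight at 4 days (1.79%, beside 0.352% of all loci), with 48.3 FPKM in flight and 27.4 FPKM on the ground in the authors' deposited table (0.82 ± 0.44). At 8 days 3 of the 56 genes rose and 0 fell in WS (5.36%, beside 2.36% of loci). They were PHO1 in its joined locus at 1.21 ± 0.52, the phosphatidate phosphatase gene PAH2 at 0.62 ± 0.34 and PHO1;H1 at 0.58 ± 0.35 in the authors' deposited table. The joined locus ran over 57020 bases in WS, so its rise cannot be assigned to PHO1 alone. All 3 genes have transcripts of more than 2500 nt, a class in which 92.1% of the 190 called genes were higher in flight in 8 day WS roots, against 34.4% of those of 800 to under 2500 nt. The part of transcript length in these changes was not tested. SPX1, at 1206 nt, lies in the second class.

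Cell type markers moved with flight as well. Green tissue genes had 3 of 12 lower at each age in Col-0, 4 higher at 4 days in WS and 0 called at 8 days in WS. Among all loci, 4.11% at 4 days and 2.8% at 8 days were lower in Col-0, and 0.352% were higher in 4 day WS roots. Of 11 root hair genes, 2 rose at 8 days in each accession, PRP1 and EXT12, the comparisons in which SPX1 rose, and 0 were called at 4 days. Among all loci, 1.26% rose at 8 days in Col-0 and 2.36% in WS. The PRP1 locus ran over 39477 bases in Col-0 and 1582 in WS, for a transcript of 1373 nt. That of EXT12 ran over 16275 and 16332 bases, for a transcript of 1569 nt. Of 7 seed and embryo genes, 2 were higher in 4 day WS roots, where RNS1 rose and 0.352% of all loci were higher. In Col-0, where RNS1 rose at both ages, 0 of the 7 were called at either age. The part of these cell types in the flight changes of phosphate genes was not tested.

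**Figure D5:**
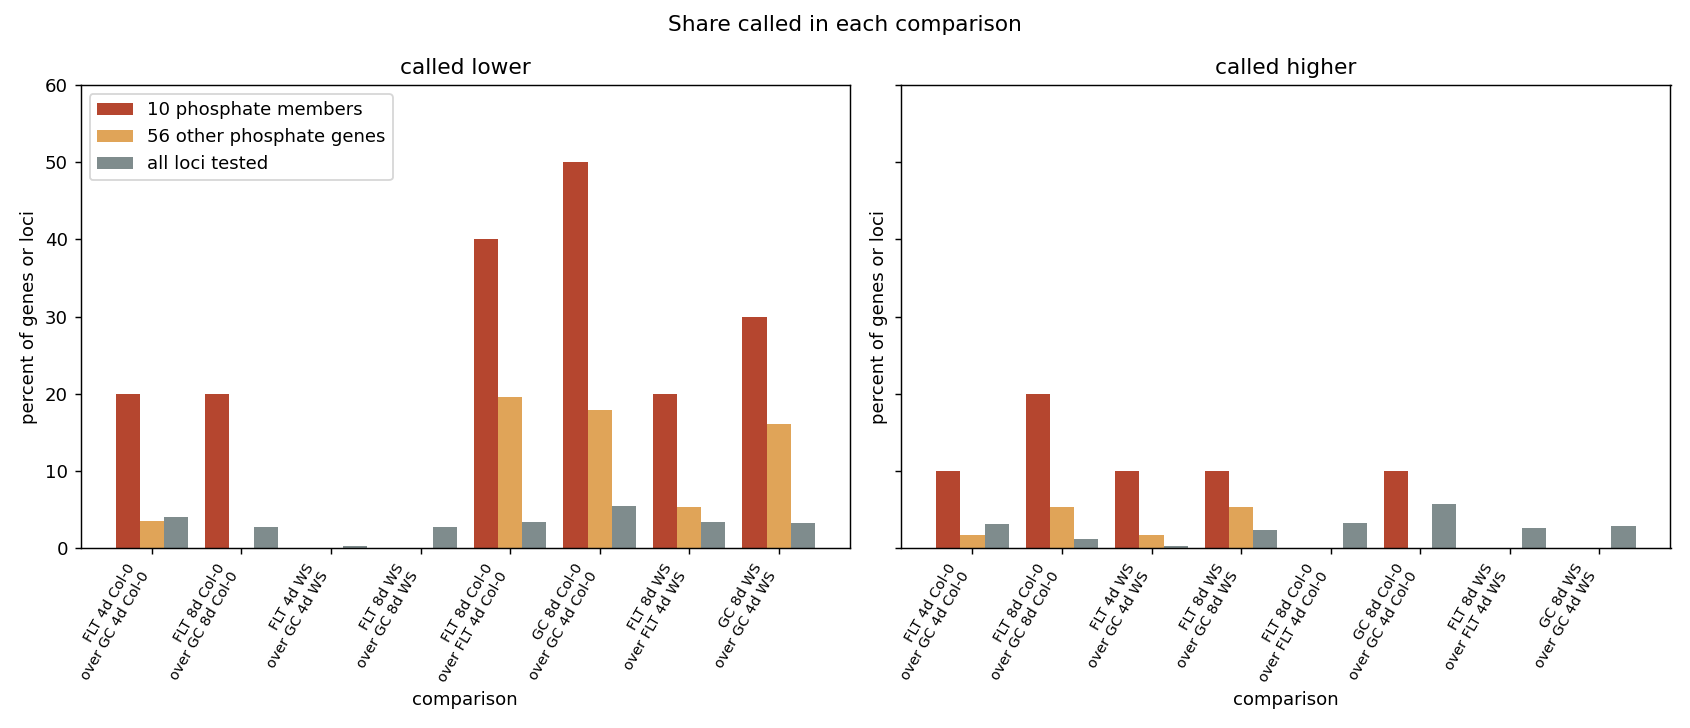
Percent of the 10 genes, of 56 other phosphate genes and of all loci tested that the authors called lower (left) or higher (right) in each comparison; the first bars stand for 10 genes, so 1 gene is 10 percent. Decreases with age reach 5 of 10 genes in ground Col-0 roots, beside 5.54% of loci.

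The genes whose calls over the 8 comparisons were most like those of SPX1, PHT1;4 and PHT1;1, the genes called 4 times or more, were taken by a count of shared calls. Likeness was the number of comparisons called in the same direction, less those called oppositely or for only 1 of the pair, with ties set by the root mean square difference of fold changes; comparisons of flight and of age within an accession share libraries. For SPX1, with 6 calls, NPY2 (AT2G14820) shared all 6 with a root mean square difference of 0.48. UGT74E2, a glucosyltransferase gene, shared 6 and was called in 1 more, and GDPD1 shared 5 of 6 with a difference of 0.37. For PHT1;4, with 5 calls, AT5G64120, FLA13 and the aquaporin gene PIP1B shared all 5, with differences of 0.43, 0.66 and 0.88. For the PHT1;1 locus, with 4 calls, PEP7, AT4G12545 and NANA shared all 4, with differences of 0.39, 0.57 and 0.59. Of these 9 genes only GDPD1 is among the phosphate genes listed.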

How the data were processed

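RNA was measured in 32 root libraries of 8 groups. Per the labels, cDNA came from 10 ng of RNA per library, amplified over 8 PCR cycles with SMART-Seq v4, which keeps no strand. Per the submitters' processing notes, the build was TAIR10 and the tools included STAR 2.5.1b, Cufflinks and Cuffdiff, with Trimmomatic 0.36, Picard and FastQC 0.11.2. No source used here gives the settings. The deposited FPKM values are the authors' group levels, scaled within each table. Each deposited log2 value is the ratio of a pair of such levels, with age tables turned here to 8 over 4 days. The deposited test statistic is a score, and the p-value and q-value are the authors' Cuffdiff results, adjusted within each table. Listed loci have a q-value up to 0.0499. Replicates of a group may share technical history, and p-values measure only the spread between these libraries.

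The standard error was the fold change over its statistic, and the number of loci tested (17365 to 20035) was recovered from p-value, rank and q-value. Differences of fold changes between comparisons without a shared library were divided by their combined error. They were set against a normal distribution, adjusted over all 2181 (34 passed, 1.56%). The calculation was run on simulated data drawn with these same errors, with planted differences larger than any reported here for these genes. That run checks the arithmetic and not whether the errors are of the right size. Python 3.11.15, pandas 2.3.3 and scipy 1.17.1 were used. For a group that 2 tables list, median log2 ratios between its levels ran from -0.12 to 0.13. WS tables use positions of another sequence, so positions are given for Col-0 only. All 3390 Col-0 loci of 1 gene that were checked overlapped the gene of the same identifier in TAIR10.1. A locus naming several genes counted for each. Of 58 further phosphate identifiers, 2 lack a matching symbol in the reference and were not used. Named genes were all 10, up to 4 other phosphate genes per comparison by size of change, and the 3 most alike genes of each gene called 4 times or more. PHF1, G3Pp1, the joined PHT1;3 and PHT1;2 locus, OLEO4, PRP1 and EXT12 lie outside that rule and were chosen after their values were seen. The genes, lists and tests were chosen with earlier results of these data known.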

Additional observations from a re-analysis of the deposited data

How the results depend on the processing

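No paired analysis was possible because the tables hold 1 value per group and none per replicate, which also kept replicates from being left out in turn. Adding 1 FPKM to both levels kept the direction of all 24 fold changes of the 10 genes and moved each by less than its error. Subtracting the median of the called loci turned 1, PHT1;1 at 4 days in flight Col-0, to 0.0517 and moved 16 others by more than their error; that median covers called loci only. With age it left SQD1 at -0.26 in flight and -0.79 on the ground in Col-0, SPX1 at -0.46 and PHT1;4 at -0.64 in flight WS, and SQD2 at -0.34 in ground WS roots. None of 15 differences between fold changes passed by Cuffdiff errors under the normal test, under a t distribution or adjusted within each pair, and 0 had an unadjusted p under 0.05. With a log2 change of 1 or more required, the 10 genes kept 1 call in 4 day and 0 in 8 day flight Col-0 roots, 0 in 8 day flight WS roots and 1 with age in flight WS roots. The other phosphate genes then kept 1 call in 4 day Col-0, 0 in 4 day WS, 1 in 8 day Col-0 and 1 in 8 day WS roots in flight, and 2 in flight and 5 in ground Col-0 roots with age. At a q-value of 0.01 both lists had 0 calls in 4 day WS roots, where the smallest listed q-value was 0.0113, and the other phosphate genes had 1 in 8 day WS roots. Age calls of the other phosphate genes were all decreases under each of the 4 alternatives on thresholds and joined loci, from 16 to 32 of them, and those of the 10 genes were 9 to 14 decreases and 1 increase. Leaving out loci under 5 FPKM, or for the other phosphate genes loci that name several genes, moved no count by more than 1.5 times; no listed locus of the 10 genes names several. Leaving out the Col-0 loci of PHT1;1 and SQD2, which span several annotated genes, was chosen after seeing the data and left 11 decreases and 1 increase with age and 5 increases and 2 decreases in flight. Depth per library is unknown.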
